A study of Mus musculus with 8 samples.

Results

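Livers labelled as lacking the gene Pr-Set7 in hepatocytes, a genetic route to liver tumours, were set against livers of mice injected with a carcinogen, a chemical route, by comparing raw gene counts from RNA sequencing. The comparison takes the 4 libraries labelled PR-SET7_LOBE and the 2 labelled DEN_WT, which are 6 of the 8 libraries of the study. They were chosen by the labels and by no measured value. The other 2, labelled WT, are untreated wild-type livers and serve here as reference levels. Every library comes from the liver of C57BL6/CBA mice at 8 months of age. PR-SET7_LOBE mice have the genotype PR-SET7_LX_ALB_CRE: Cre recombinase under the albumin promoter acts in hepatocytes on a floxed Pr-Set7 gene, so the other liver cells keep the gene. DEN_WT mice are wild type and received diethylnitrosamine (DEN), a liver carcinogen, by intraperitoneal injection at postnatal day 15, given as 25 ml per kg without a concentration. What LOBE stands for and the sex of the mice are not given in the labels. Nothing in the labels tells whether replicates are different animals, and the p-values then measure only the spread between these libraries, part of which may be technical. Within PR-SET7_LOBE that spread was far above counting noise (chi-square per degree of freedom from 64.5 to 213 between pairs of libraries).

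Pr-Set7 (gene symbol Setd8) is the enzyme that places the first methyl group on lysine 20 of histone H4, a mark needed for chromosome compaction and for intact DNA replication. Cells that lose it accumulate DNA damage, and a liver whose hepatocytes die is refilled by surviving hepatocytes or by progenitor cells of the bile ducts. DEN acts differently: it is activated by cytochrome P450 enzymes of hepatocytes and alkylates DNA, and in young mice the mutated hepatocytes later grow into tumours, often with an activated RAS-MAPK pathway.

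Both DEN_WT libraries differed from the rest in ways that touch every result below. The first principal component of log2 CPM (counts relative to the scaled size of each library) held 42.8% of the variance and separated the DEN_WT libraries from the 6 others; the second held 26.8% and set PR-SET7_LOBE replicates 3 and 4 apart. Pseudogenes held 2.93% and 3.42% of their counts, against 1.14% to 1.69% in the other libraries. Total counts ran from 7305595 to 12170293 in PR-SET7_LOBE and were 10120058 and 10802335 in DEN_WT. PR-SET7_LOBE replicate 1 correlated better with the WT libraries (mean r = 0.923 across genes) than with the other PR-SET7_LOBE libraries (mean r = 0.890), and its deviations followed GC content most (r = 0.607 across genes). Any difference in handling between the DEN_WT libraries and the rest cannot be told apart from the treatment.

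The level of Setd8 (ENSMUSG00000049327; chromosome 5, 124889939 to 124912317 of mm9) was 62.6, 57.4, 47.9 and 46.5 CPM in those labelled PR-SET7_LOBE, 40 and 42.8 CPM in DEN_WT and 51.9 and 56.0 CPM in WT. The gene of the deleted enzyme was therefore not low in the libraries labelled PR-SET7_LOBE, whose values all lay above those of DEN_WT (log2 fold change 0.37, SE 0.32, adjusted p = 0.494). The counts cover the whole gene, the deleted part is not given, and liver cells without Cre keep the gene, so this check does not test the genotype. Of the 15 tested genes that write, read or remove methylation on lysine 20 of histone H4, or turn Pr-Set7 over, 0 passed the edgeR test. At an unadjusted p under 0.05, 2 of them were lower, as they were with voom, and DESeq2 called 0. L3mbtl3, a reader of methylated histones, was at 5.97 ± 0.982 against 12.5 ± 3.29 CPM (SD, n = 4 and 2; adjusted p = 0.112), and Phf8, a demethylase, at 10.3 ± 1.92 against 18.5 ± 0.283 CPM (adjusted p = 0.144).

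Beside pseudogenes, which are kept apart, 792 genes were higher and 349 lower in PR-SET7_LOBE than in DEN_WT, or 7.17% of 15920 tested (4.97% higher and 2.19% lower). A gene passed at an adjusted p under 0.05 in edgeR's quasi-likelihood test over all 17362 tested genes. "Without a DEN_WT library" below means that 1 of the 2 was left out of the fit. The groups did not overlap in 1919 of the 1924 genes that passed, pseudogenes included (11.1% of all tested genes passed, 4.82% higher and 6.26% lower), and in 7027 of all 17362 tested genes (40.5%). The median log2 fold change lay at 0.18 over all tested genes and at 0.25 without pseudogenes, and at 0.28 over all genes with upper-quartile scaling, so a list's median is read against them. In bulk liver, fewer cells of a type and less RNA per cell cannot be told apart. The WT mean lay nearer PR-SET7_LOBE than DEN_WT on a log2 scale for 667 of the 792 higher genes (84.2%). That held for 297 of the 349 lower ones (85.1%). In most genes that passed, DEN_WT was thus the group that stood apart by its mean. The same share over all tested genes was not computed. The genes were selected by the gap between these 2 groups, with a DEN_WT mean of 2 libraries, which can itself raise the shares. The count rested on both DEN_WT libraries: without replicate 1 the fit called 275 genes, of which 271 were among the 1141, and without replicate 2 it called 187, of which 184 were. In those fits the remaining DEN_WT library is assumed to vary like the other groups. Without PR-SET7_LOBE replicate 1 the fit called 1834 genes, and 1103 of the 1141 remained. The percentages of members quoted for the gene lists are read against the 7.17%.

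**Figure D1:**
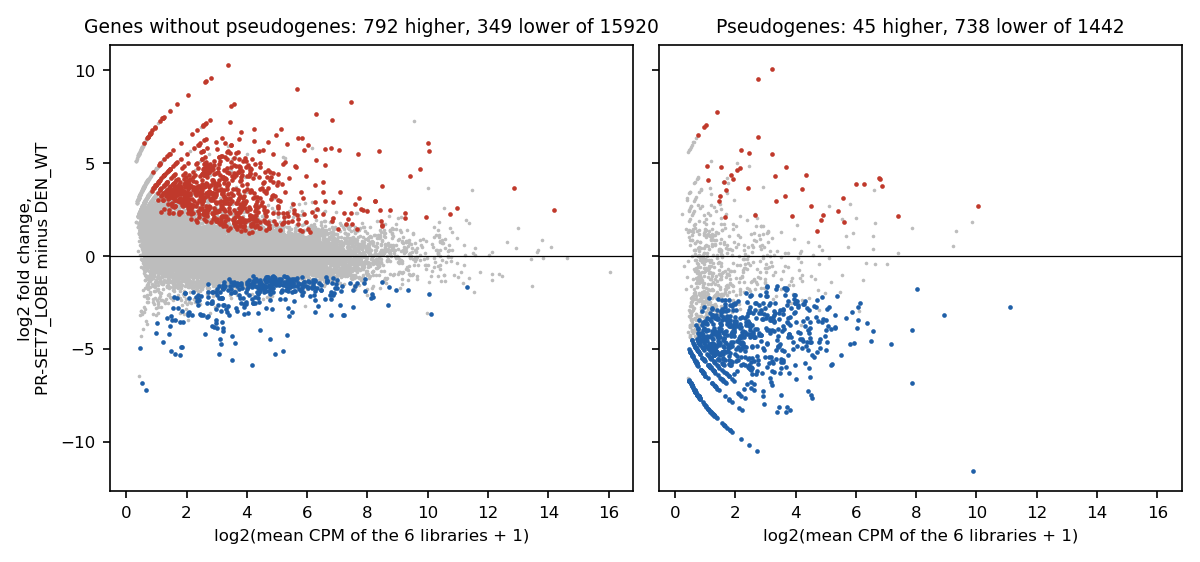
Log2 fold change between PR-SET7_LOBE and DEN_WT (vertical axis) against the log2 of the mean CPM of the 6 libraries plus 1 (horizontal axis), 1 point per tested gene, for genes without pseudogenes (left) and pseudogenes (right). Red points were higher and blue points lower in PR-SET7_LOBE, and grey points did not pass; 738 of 1442 pseudogenes were lower, against 349 of 15920 other genes.

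Pseudogenes, which are copies of genes that no longer code for a protein, were mostly lower in PR-SET7_LOBE where they passed the test. Of 1442 tested, 738 were lower in PR-SET7_LOBE (51.2%) and 45 higher (3.12%), so 54.3% passed, with a median log2 fold change of -3.07. Mup-ps22, a pseudogene of a major urinary protein, had 2.25, 0.478, 0.0928 and 0.911 CPM in PR-SET7_LOBE and 2382 and 3311 CPM in DEN_WT (log2 fold change -11.56, SE 1.19, adjusted p = 0.000745), and 0.191 and 4.79 CPM in WT. Mup-ps19, which is 95.1% identical to the coding gene Mup20, had 10.3, 2.97, 0.835 and 10.1 against 644 and 718 CPM. Gm14078 had 0.470, 0.478, 0.186 and 0.273 against 52.7 and 77.5 CPM, and H2-Ea-ps, a pseudogene of an MHC class II chain, 0, 0, 0.186 and 0.273 against 11.5 and 16.9 CPM, with 37.1 and 11.7 CPM in WT. H2-Ea-ps was thus near 0 in PR-SET7_LOBE and present in both other groups, while the first 3 were high in DEN_WT alone. C57BL6 mice are known to carry a deletion in the promoter of H2-Ea that CBA mice lack, and the share of each strain in the libraries was not tested. In the other direction Gm12780 had no counts in DEN_WT and 8.08, 18.0, 4.08 and 20.0 CPM in PR-SET7_LOBE. It was at least 94.6-fold higher there against 3 counts over both DEN_WT libraries. Gm12896, with no counts in DEN_WT either, had 17.4, 13, 2.69 and 1.37 CPM; Gm12895, an exact copy of it, cannot be told apart from it, and neither passed without a DEN_WT library. 1600029O15Rik had 5.17, 8.90, 2.60 and 4.55 CPM against 0.0885 and 0.0883 CPM. Of the 738 lower pseudogenes, 702 (95.1%) had a WT level nearer PR-SET7_LOBE, a share with the same limits as those of the other genes.

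The parent genes did not follow their pseudogenes. For 511 of the lower pseudogenes a coding parent was found (at least 90% identity over at least 50% of the pseudogene), and of the 414 tested parents 17 were higher and 17 lower, with a median log2 fold change of -0.01. The next shares cover the families of all 1182 pseudogenes with a parent found, tested or not. Summed over them, pseudogenes took 21.1% and 23.2% of the counts in DEN_WT, 6.68% to 8.84% in PR-SET7_LOBE and 7.54% and 10.4% in WT. The gap between DEN_WT and the 6 others held in each of these libraries. The exact copies Gm12896 and Gm12895 each had 365 counts in PR-SET7_LOBE and 305 in WT, but 0 and 2 in DEN_WT. How reads with several equally good positions were assigned is not given in the sources used here. Its part in the result, and whether it differed between libraries, was not tested.

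**Figure D2:**
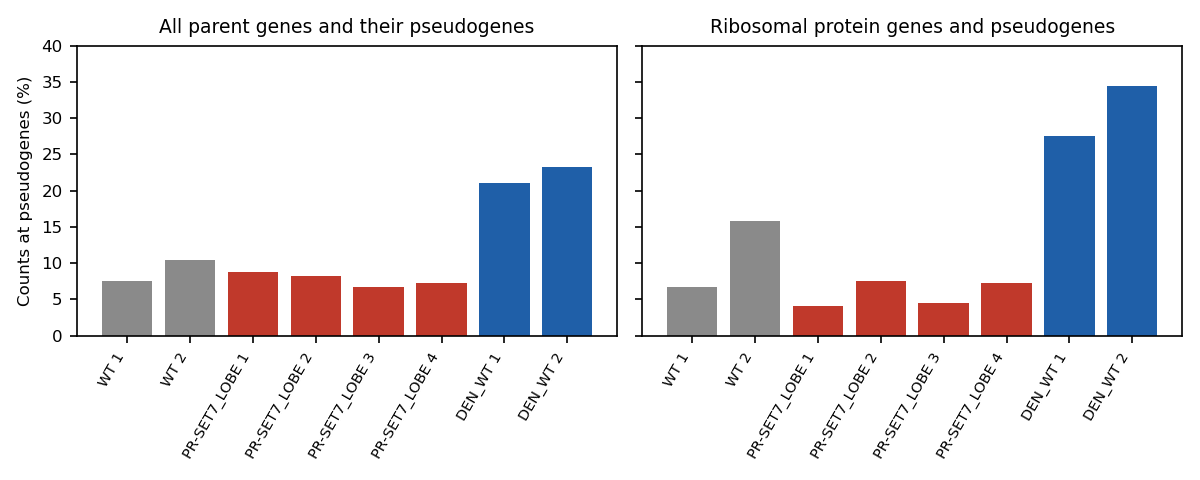
Share of counts (%) that fell on pseudogenes rather than on their parent genes, 1 bar per library. The left panel covers all 1182 pseudogenes with a parent found, tested or not, and the right panel cytosolic ribosomal proteins. DEN_WT stood at 21.1% and 23.2% on the left and at 27.5% and 34.4% on the right, above the other 6 libraries in both panels.

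Among the 12 highest genes by the naming rule, 9 encode replication-dependent histones. These genes of the histone clusters make the bulk of new histones in S phase, and their messenger RNA ends in a stem-loop and mostly has no poly(A) tail. Hist1h2ad (mm9 chromosome 13, 23666250 to 23666821) had 19.3, 9.09, 1.49 and 1.37 CPM in PR-SET7_LOBE, 10 and 6.27 CPM in WT and no counts in DEN_WT, at least 58.8-fold higher (adjusted p = 0.0165). Hist1h2bn (mm9 chromosome 13, 21845992 to 21846372) had 28.3, 17.1, 7.80 and 7.83 CPM against a single count in DEN_WT. The ratio was 343, and counting error alone spans 61.4 to 13571 at 95% (adjusted p = 0.00139). Hist1h2bp had 30.8, 22.1, 6.87 and 5.19 CPM against 0.0885 and 0 CPM, Hist1h2bk 34.7, 22.6, 9 and 7.93 against 0.177 and 0.265 CPM, and Hist1h2br 39.1, 26.2, 11.6 and 10.6 against 0.443 and 0.795 CPM. In each of these genes PR-SET7_LOBE replicates 1 and 2 stood above replicates 3 and 4, and all 4 stood above both DEN_WT libraries. Of 62 histones in the list 47 were tested, of which 31 were higher and 0 lower (66.0% passed), with a median log2 fold change of 4.70, or 4.30 with the 6 tested genes at 0 counts in both DEN_WT libraries set at their lower bound. The summed level was 316 to 1314 CPM in PR-SET7_LOBE, 121 and 144 CPM in DEN_WT and 633 and 863 CPM in WT. The WT libraries thus lay within the range of PR-SET7_LOBE and above DEN_WT. Of the 31, 6 remained without DEN_WT replicate 1 and 5 without replicate 2; Hist1h2bf, Hist1h2bk, Hist1h2bn, Hist1h2bp and Hist1h2br remained in both. Most of these genes have near-identical copies (Hist1h2ad is 99.4% identical to Hist1h2aj), so their values are uncertain gene by gene. Hist1h2ag had 19.3, 9.09, 1.21 and 1.37 CPM in PR-SET7_LOBE, nearly the values of Hist1h2ad. The number of histones that passed and the summed level may thus count the same reads more than once, which was not tested. How well oligo(dT) beads recovered such RNA in each library was not tested either.

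Of the other genes among the 12 highest, H2-M10.4 and the hairpin gene mmu-mir-2134-2 were also nearly absent from DEN_WT alone. H2-M10.4, a class Ib MHC gene, had 1.88, 6.03, 1.67 and 3.64 CPM in PR-SET7_LOBE, 6.22 and 22.3 CPM in WT and no counts in DEN_WT, at least 24.9-fold higher (adjusted p = 0.0611 without DEN_WT replicate 2). mmu-mir-2134-2 had 133, 228, 40.8 and 62.3 CPM against 0.708 and 0.442 CPM, with 71.4 and 234 CPM in WT; it has exact copies (mmu-mir-689-2 among them), so the reads cannot be given to this position. In all, 84 genes that are no pseudogenes were under 1 CPM in both DEN_WT libraries and at 5 CPM or more in every PR-SET7_LOBE library. Of these 84, 75 were at 5 CPM or more in both WT libraries too, and 7 are histones. The reverse pattern, under 1 CPM in all 4 PR-SET7_LOBE libraries and at 5 CPM or more in both of DEN_WT, held for 1 gene and for 162 pseudogenes.

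**Figure D3:**
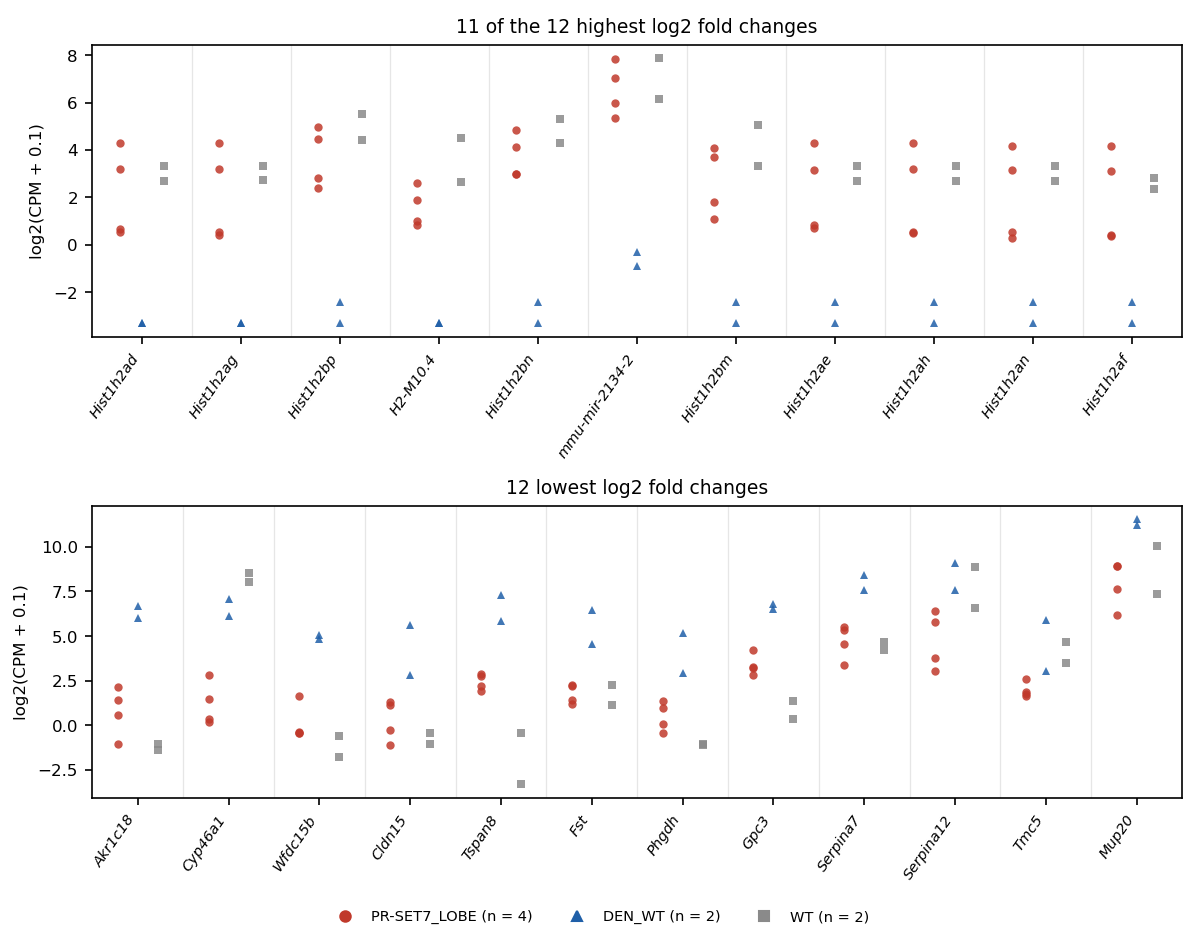
Level of 11 of the 12 genes with the highest (top) and the 12 with the lowest (bottom) log2 fold change, as log2(CPM + 0.1), 1 point per library: circles PR-SET7_LOBE, triangles DEN_WT, squares WT. The histones and mmu-mir-2134-2 were low in DEN_WT alone. Akr1c18, Wfdc15b and Tspan8 were highest in DEN_WT, and Tspan8 was also above WT in every PR-SET7_LOBE library.

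Among genes that mark liver tumours and fetal liver, 4 were lower in PR-SET7_LOBE, and 3 of these are among the 12 lowest genes. Akr1c18, an aldo-keto reductase that breaks down progesterone (mm9 chromosome 13, 4131861 to 4149900), had 0.376, 4.30, 2.60 and 1.37 CPM in PR-SET7_LOBE, 64.8 and 103 CPM in DEN_WT and 0.383 and 0.277 CPM in WT (log2 fold change -5.27, SE 0.64, adjusted p = 0.00107). Tspan8, a tetraspanin of carcinoma cells (mm9 chromosome 10, 115254340 to 115286949), had 4.51, 6.70, 7.24 and 3.64 CPM against 58.1 and 155 CPM (log2 fold change -4.27, SE 0.59, adjusted p = 0.00157), with 0 and 0.645 CPM in WT. Gpc3, the heparan sulfate proteoglycan glypican 3 and a marker of hepatocellular carcinoma (mm9 chromosome X, 49625603 to 49967127), had 9.11, 9.57, 6.87 and 18.5 against 91.5 and 113 CPM (log2 fold change -3.21, SE 0.44, adjusted p = 0.00143). Afp, alpha-fetoprotein, the albumin-like protein of fetal serum (mm9 chromosome 5, 90919740 to 90937933), had 8.92, 32.1, 4.83 and 6.56 against 102 and 109 CPM (log2 fold change -3.01, SE 0.62, adjusted p = 0.0105). Tspan8, Gpc3 and Afp were not at WT level in PR-SET7_LOBE. WT had 1.15 and 2.49 CPM of Gpc3 and 2.49 and 2.49 CPM of Afp. These and the WT values of Tspan8 lay below every PR-SET7_LOBE library. Of the 25 oncofetal and tumour genes of the list, these 4 were lower and Igf2bp2, an RNA-binding protein of growth factor messages, was higher (20.0% passed, median 0.37). The other 20 did not pass, and 14 of the 25 had a positive log2 fold change. Igf2bp2 was at 6.67 ± 4.73 against 0.884 ± 0.127 CPM (log2 fold change 2.90, adjusted p = 0.0488) and did not pass when PR-SET7_LOBE replicate 1, 3 or 4, either DEN_WT library or either WT library was left out. Without DEN_WT replicate 1 the 4 lower genes remained, and without replicate 2 Afp did not (adjusted p = 0.0598).

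Of 3 imprinted growth genes, H19 and Igf2 were high in PR-SET7_LOBE replicates 1 and 2 but not in 3 and 4, and Dlk1 was above DEN_WT in all 4 libraries. H19, a non-coding RNA of fetal liver, had 6959, 9387, 9.65 and 109 CPM in PR-SET7_LOBE replicates 1 to 4 and 576 and 138 CPM in DEN_WT, and 0.383 and 0.369 CPM in WT. Igf2, the fetal insulin-like growth factor expressed from the neighbouring gene, had 2419, 2030.3, 1.76 and 5.65 CPM against 10.6 and 3.80 CPM. Dlk1, a membrane protein of fetal hepatoblasts, had 53, 3.54, 1.21 and 2.92 against 0.443 and 0.353 CPM. Replicates 1 and 2 held most of the H19 and Igf2 counts, and replicates 3 and 4 overlapped with DEN_WT or lay below it. None of the 3 passed in edgeR (H19 adjusted p = 0.290, Igf2 0.106, Dlk1 0.0859). Igf2 did pass with DESeq2 (adjusted p = 0.00575) and without PR-SET7_LOBE replicate 3 or 4 (0.0349 and 0.0480), and Dlk1 with voom (adjusted p = 0.0188) and without replicate 3 (0.0472).

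The remaining lowest genes have different roles. Cyp46a1, cholesterol 24-hydroxylase, which is best known from brain (mm9 chromosome 12, 109572587 to 109600441), was low in PR-SET7_LOBE alone: WT had 262 and 375 CPM, DEN_WT 68.3 and 134 CPM and PR-SET7_LOBE 7.04, 1.15, 1.02 and 2.64 CPM (log2 fold change -5.09, SE 0.69, adjusted p = 0.00142). Fst, follistatin, which binds and blocks activin, had 4.60, 2.58, 2.14 and 4.55 against 23.3 and 87.1 CPM (-3.99 on the log2 scale), with 4.69 and 2.12 CPM in WT. Serpina7, the thyroxine-binding globulin, had 10.3, 44.5, 40.3 and 23.0 against 345 and 189.9 CPM. Wfdc15b, a secreted protein with a WAP domain, had 0.657, 2.97, 0.650 and 0.638 against 28.8 and 33.8 CPM. These 4 passed whichever DEN_WT library was left out, and the remaining ones did not in at least 1 of those fits. Cldn15, a claudin of tight junctions, had 49.2 and 6.80 CPM in DEN_WT and Tmc5, a membrane channel-like protein, 60.7 and 8.04 CPM, so replicate 1 was the higher one for both; without it their adjusted p was 0.255 and 0.520. Phgdh, described below, had 7.61 and 35.5 CPM, with replicate 2 the higher one. Without that library its adjusted p was 0.199. Serpina12, the adipokine vaspin, was at 40.8 ± 36.8 against 368 ± 249 CPM (adjusted p = 0.0515 without DEN_WT replicate 1 and 0.365 without replicate 2), and Mup20, the urinary pheromone darcin, at 315 ± 213 against 2708 ± 402 CPM (adjusted p = 0.116 and 0.0985). Serpina12 also did not pass without PR-SET7_LOBE replicate 1 or 4 (0.0556 to 0.0716), and Mup20 without PR-SET7_LOBE replicate 2 (0.0759).

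Electrophile defence was the pathway list in which the most members were higher after the histones. NRF2 (gene Nfe2l2) is a transcription factor that is freed when electrophiles or oxidants modify its inhibitor KEAP1, and it then turns on glutathione synthesis, conjugating enzymes and export pumps. Of 29 members, 11 were higher in PR-SET7_LOBE and 0 lower (37.9% passed, median log2 fold change 1.39). The summed level of the list was 6243 to 11394 CPM in PR-SET7_LOBE, 3537 and 3553 CPM in DEN_WT and 3889 and 5684 CPM in WT. Cbr3, a carbonyl reductase (mm9 chromosome 16, 93683460 to 93691235), had 60.2, 57.6, 69.7 and 18.5 CPM in PR-SET7_LOBE, 0.443 and 0.442 CPM in DEN_WT and 0.191 and 0.0922 CPM in WT (log2 fold change 6.83, SE 0.73, adjusted p = 0.000746). Gpx2, a glutathione peroxidase otherwise typical of gut (mm9 chromosome 12, 77893322 to 77896541), had 66.1, 105, 136 and 23.9 against 1.95 and 0.0883 CPM, and no counts in WT (log2 fold change 6.33, SE 1.12, adjusted p = 0.00578). Gsta1, a glutathione transferase (mm9 chromosome 9, 78078463 to 78090491), had 83.3, 310.0, 185 and 82.5 against 2.74 and 3.09 CPM, with 5.46 and 9.59 CPM in WT; Gsta2, a 97.2% identical copy, also rose (3.85, adjusted p = 0.00759), and the counts of the pair cannot be told apart with certainty. In these genes PR-SET7_LOBE stood above both other groups, which were both low.

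Among the other members that rose, WT lay with DEN_WT or between the groups. Slc7a11, the cystine importer that feeds glutathione synthesis (mm9 chromosome 3, 50168858 to 50247535), had 29.8, 38.6, 166 and 49.4 against 2.21 and 2.91 CPM (log2 fold change 4.78, SE 0.86, adjusted p = 0.00508), with PR-SET7_LOBE replicate 3 far above the rest. Abcc4, an efflux pump of bile acids and conjugates (mm9 chromosome 14, 118881914 to 119105441), had 36.6, 57.0, 45.2 and 23.8 against 2.30 and 2.83 CPM (log2 fold change 3.98, SE 0.49, adjusted p = 0.00111). Cbr1 had 221, 234, 242 and 72.0 against 16.6 and 19.0 CPM and Nqo1, a quinone reductase, 16.3, 62.0, 62.4 and 20.2 against 3.72 and 4.59 CPM. PR-SET7_LOBE replicate 4 was the lowest for Cbr3, Gpx2 and Cbr1. The mu class transferases Gstm1, Gstm2 and Gstm3 rose by 2.59, 2.93 and 3.76 on the log2 scale (adjusted p = 0.0126, 0.00647 and 0.00712). Gstm2 was the exception, with 91.8, 286, 154 and 114 CPM in PR-SET7_LOBE, 21.2 and 21 CPM in DEN_WT and 64.8 and 99.6 CPM in WT, which overlapped PR-SET7_LOBE. Without DEN_WT replicate 1, 5 of the 11 remained, and without replicate 2, 4 did: Abcc4, Cbr3, Gpx2 and Gsta1 were in both. Cbr1, Nqo1, Slc7a11, Gstm1, Gstm2 and Gsta2 did not pass in either of these fits (Cbr1 adjusted p = 0.0553 and 0.0592).

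NRF2 binds the antioxidant response element, which was searched as TGACNNNGC on both strands in windows from 250 bases before to 50 after each gene's start (RefSeq, GRCm38.p6). The letters occurred in 12.4% of 32851 single windows. A list member counted if any of its windows matched, so its share is not directly comparable. That held for 11 of the 25 list members with a window and for 1 of the 11 members that rose, Abcc4. Abcc4 is shown because it is the one match among the genes that rose. Of its 2 windows, the one shown lies on the minus strand at chr14:118706170-118706469. The capitals mark the element, read here from the opposite strand.
Abcc4: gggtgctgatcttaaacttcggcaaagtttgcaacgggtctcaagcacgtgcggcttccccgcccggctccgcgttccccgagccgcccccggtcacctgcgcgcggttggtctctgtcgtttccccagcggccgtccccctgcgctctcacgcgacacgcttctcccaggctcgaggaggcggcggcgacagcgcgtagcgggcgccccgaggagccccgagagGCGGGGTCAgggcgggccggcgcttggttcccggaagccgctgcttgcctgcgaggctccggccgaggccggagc
The first base of the match lies 25 bases before the annotated start of that window. The other members that rose do not hold these letters in any window searched, which says nothing of elements elsewhere.

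**Figure D4:**
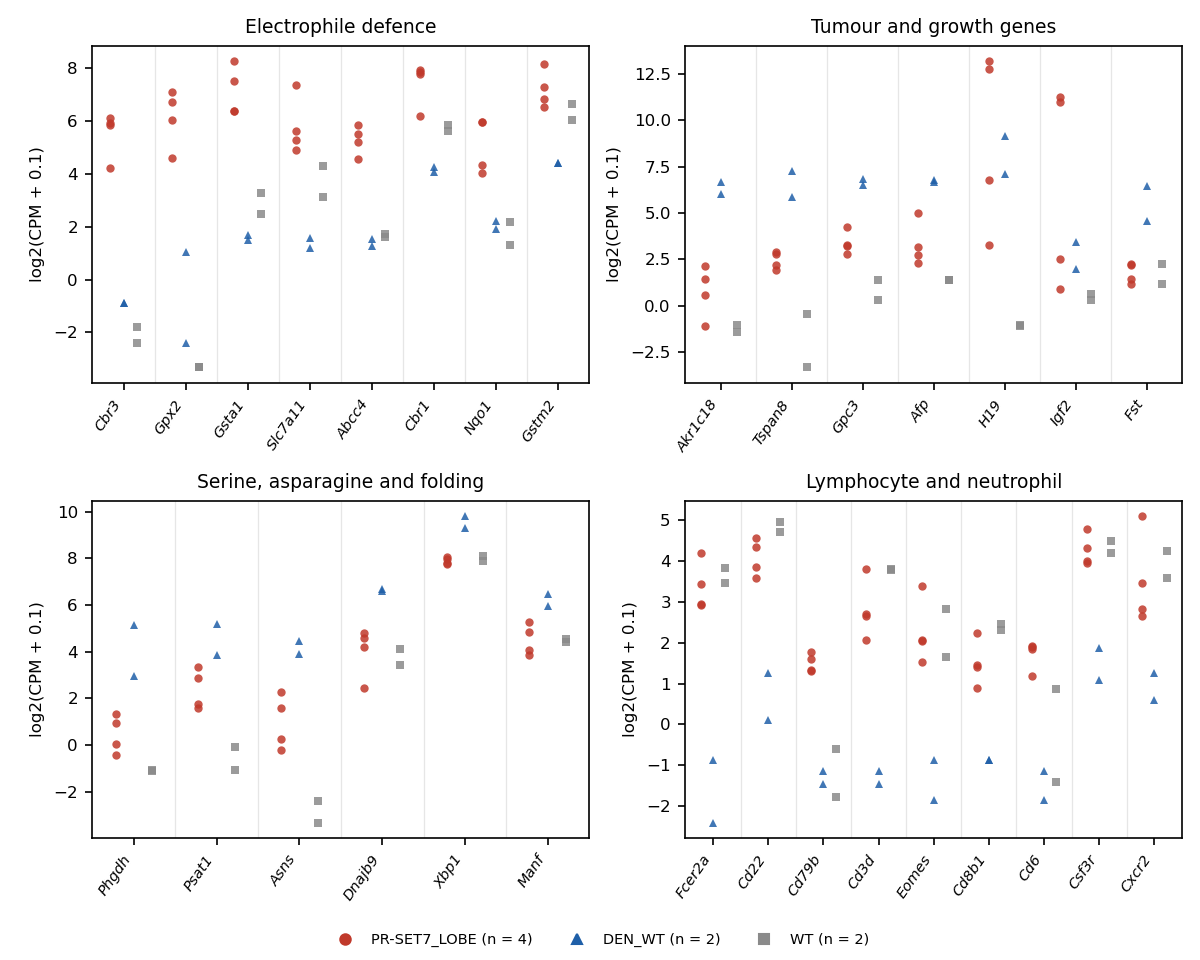
Level of genes of 4 groups as log2(CPM + 0.1), 1 point per library: circles PR-SET7_LOBE, triangles DEN_WT, squares WT. Genes of electrophile defence were highest in PR-SET7_LOBE (Gstm2 overlapped WT), Akr1c18, Tspan8, Gpc3, Afp and the genes of serine and asparagine synthesis were highest in DEN_WT, and lymphocyte and neutrophil genes other than Cd79b and Cd6 were lowest in DEN_WT with WT near PR-SET7_LOBE.

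Amino acid synthesis and protein folding went the other way. The unfolded protein response and the amino acid response meet in ATF4, a transcription factor that turns on enzymes of serine and asparagine synthesis, amino acid transporters and chaperones. Of 31 members, 6 were lower and 1 higher in PR-SET7_LOBE (22.6% passed, median -0.68). The summed level was 2116 to 3356 CPM in PR-SET7_LOBE, 4767 and 5080.4 CPM in DEN_WT and 3067 and 3279.6 CPM in WT, so DEN_WT stood above both other groups. Phgdh, the first enzyme of serine synthesis, had 2.44, 1.82, 0.928 and 0.638 CPM in PR-SET7_LOBE, 7.61 and 35.5 CPM in DEN_WT and 0.383 and 0.369 CPM in WT (log2 fold change -3.88, SE 0.66, adjusted p = 0.00372). Psat1, the next enzyme of that path, had 3.29, 10, 7.15 and 2.92 against 14.6 and 36.2 CPM (adjusted p = 0.0356). Asns, asparagine synthetase (mm9 chromosome 6, 7625169 to 7643254), had 2.91, 0.765, 4.73 and 1.09 against 15.0 and 22.2 CPM (log2 fold change -2.96, SE 0.66, adjusted p = 0.0155), with 0 and 0.0922 CPM in WT. All 3 enzymes were lowest in WT, intermediate in PR-SET7_LOBE and highest in DEN_WT by their means. Phgdh has 3 copies of at least 95% identity (Gm7901 at 96.2% among them), so its value is uncertain.

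Of the folding genes, Dnajb9, a co-chaperone of the endoplasmic reticulum, had 5.35, 27.9, 23.7 and 18.2 against 98.3 and 104 CPM (log2 fold change -2.43, SE 0.51, adjusted p = 0.0118). Xbp1, a transcription factor of the unfolded protein response, was at 240.1 ± 23.7 against 766 ± 197 CPM (adjusted p = 0.0120) and Manf, a secreted stress protein, at 24.6 ± 11.3 against 75.1 ± 18.8 CPM (adjusted p = 0.0310). The WT levels of the 3 (10.8 and 17.1, 238 and 277, and 21.2 and 23.2 CPM) were near those of PR-SET7_LOBE. The exception was Slc7a11, which belongs to this list too and was higher. Without DEN_WT replicate 1, Phgdh and Psat1 remained among the 7 (Psat1 did not without PR-SET7_LOBE replicate 4 (0.0695)), and without replicate 2 none did (adjusted p = 0.199 for Phgdh, 0.160 for Asns and 0.0773 for Dnajb9).

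Slc7a11 and Asns are both known to be turned on by ATF4 through an amino acid response element, and they moved in opposite directions here, so both promoters are shown. The element was searched as TGATGNAA on both strands in the same windows. It occurred in 3.97% of the 32851 single windows. With a gene counted if any of its windows matched, it occurred in 8 of 27 list members with a window. Of the 6 passing members with a window, it occurred in 2, which are these 2. The capitals mark each match; Slc7a11 lies at chr3:50443564-50443863 and Asns at chr6:7693160-7693459, both on the minus strand.
Slc7a11: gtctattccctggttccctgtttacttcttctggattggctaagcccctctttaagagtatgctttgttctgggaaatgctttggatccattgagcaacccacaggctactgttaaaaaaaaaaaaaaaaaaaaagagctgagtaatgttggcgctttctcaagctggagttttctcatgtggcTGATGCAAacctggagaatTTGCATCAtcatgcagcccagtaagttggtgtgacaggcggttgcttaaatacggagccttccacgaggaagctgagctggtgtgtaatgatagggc
Asns: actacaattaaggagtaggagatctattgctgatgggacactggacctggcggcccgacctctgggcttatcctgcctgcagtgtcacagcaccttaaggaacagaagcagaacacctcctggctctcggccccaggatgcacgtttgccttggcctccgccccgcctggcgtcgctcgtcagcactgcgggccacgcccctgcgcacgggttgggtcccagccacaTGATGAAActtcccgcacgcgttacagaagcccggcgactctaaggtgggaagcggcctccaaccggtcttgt
Slc7a11 holds 2 matches, one on each strand, that begin 66 and 47 bases before the start. Asns holds 1, which begins 23 bases before the start. A match to these letters does not show that a factor was bound. These 2 are the passing members that hold the element, so the pair cannot tell whether it goes with direction.

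RAS-MAPK signalling passes growth factor signals to ERK kinases, which induce immediate early transcription factors and the phosphatases that switch the pathway off again. Of 26 tested members, 2 were lower and 0 higher (7.69% passed, near the 7.17% of all genes), with a median of -0.56. Egr1, an immediate early transcription factor, had 34.7, 23.7, 22.4 and 9.47 CPM in PR-SET7_LOBE, 158 and 205 CPM in DEN_WT and 18.8 and 13.5 CPM in WT (log2 fold change -3.00, SE 0.45, adjusted p = 0.00208). Dusp5, a phosphatase of nuclear ERK, had 4.98, 2.97, 2.60 and 1.64 against 12.8 and 24.8 CPM (log2 fold change -2.62, SE 0.55, adjusted p = 0.0111). Other feedback genes did not pass: Etv4, an ETS factor, was at 0.652 ± 0.197 against 3.23 ± 1.93 CPM (adjusted p = 0.0514), Spred1, a RAS inhibitor, was at 7.54 ± 3.41 against 21.6 ± 3.84 CPM (adjusted p = 0.0604), and Dusp6, a cytoplasmic ERK phosphatase, was at 56.0 ± 25.5 against 137 ± 66.7 CPM (adjusted p = 0.109). Egr1 passed whichever DEN_WT library was left out, and Dusp5 did not without replicate 2 (adjusted p = 0.216). Of 21 tested immediate early genes, Egr1 and Btg2, an antiproliferative gene, were the 2 lower ones and 0 were higher (9.52%). Btg2 had 43.7, 34.4, 45.2 and 23.0 against 132 and 108 CPM (-1.72, adjusted p = 0.00966).

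Wnt signalling stabilises beta-catenin, which in liver sets the gene program around the central vein. Of 25 tested members 3 were higher and 0 lower (12.0%, median 0.56). Lgr5, a receptor of R-spondins, had 5.64, 8.51, 8.26 and 9.66 against 2.83 and 1.59 CPM (log2 fold change 1.85, SE 0.49, adjusted p = 0.0322), and WT had 7.37 and 8.39 CPM. Dkk2, a secreted Wnt antagonist, was at 3.28 ± 1.37 against 0.619 ± 0.124 CPM (adjusted p = 0.0465), and Nr1i3, the xenobiotic receptor CAR, at 82.4 ± 13.1 against 29.8 ± 4.64 CPM (adjusted p = 0.0256). None of the 3 passed without a DEN_WT library (adjusted p from 0.147 to 0.437), nor did Lgr5 without WT replicate 1 or 2 or PR-SET7_LOBE replicate 2, 3 or 4 (0.0519 to 0.0607), Dkk2 without WT replicate 1 or 2 or PR-SET7_LOBE replicate 2, 3 or 4 (0.0608 to 0.0812) or Nr1i3 without PR-SET7_LOBE replicate 2 or 3 (0.0503 to 0.0531). Nr1i3 was also the 1 of 10 xenobiotic receptors that passed and, with Xbp1, which was lower, 1 of 2 among 22 hepatocyte transcription factors. Tead1, the DNA-binding partner of YAP, was the 1 of 26 Notch and Hippo members that passed: it had 40.8, 18.5, 20.4 and 26.3 against 4.07 and 3.62 CPM (log2 fold change 2.78, SE 0.46, adjusted p = 0.00318), with 51.5 and 40.4 CPM in WT, and it did not pass without DEN_WT replicate 2 (adjusted p = 0.0742). Sox9, a factor of bile duct progenitors, had 48.7, 17.8, 30.9 and 21 against 11.2 and 12.1 CPM and 7.56 and 3.50 CPM in WT (adjusted p = 0.115).

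The p53 pathway answers DNA damage with cell cycle arrest or death. Of 29 members 1 was higher and 2 lower (10.3%, median -0.07). Cdkn1a, the CDK inhibitor p21 and the best known p53 target, had 56.1, 38.3, 21.9 and 83.1 CPM in PR-SET7_LOBE and 35.5 and 59.8 CPM in DEN_WT (adjusted p = 0.949), all far above the 1.15 and 2.40 CPM of WT. Perp, a membrane protein of cell death, had 30.4, 16.9, 29.4 and 24.3 against 85.1 and 98.0 CPM (log2 fold change -1.86, SE 0.34, adjusted p = 0.00531), with 66.3 and 77.3 CPM in WT, so PR-SET7_LOBE was the low group. Tnfrsf10b, the death receptor of TRAIL, was higher at 23.2 ± 7.07 against 5.83 ± 2.62 CPM (adjusted p = 0.0188). Perp did not pass without DEN_WT replicate 2 (adjusted p = 0.0852), and Btg2 and Tnfrsf10b did not without a DEN_WT library (adjusted p from 0.0723 to 0.258).

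Few cell cycle genes passed. Of 37 S phase genes 2 were higher, E2f1, which drives entry into S phase (11.5 ± 3.81 against 3.05 ± 0.182 CPM, adjusted p = 0.0240), and Pola2, a subunit of DNA polymerase alpha (18.2 ± 5.17 against 5.93 ± 0.261 CPM, adjusted p = 0.0267). That is 5.41% of the list, below the share of all genes, and neither passed without a DEN_WT library (adjusted p from 0.230 to 0.311) or without PR-SET7_LOBE replicate 2 (0.0526 for E2f1 and 0.0553 for Pola2). At an unadjusted p under 0.05, 11 of the 37 were higher and 0 lower (4 and 0 in DESeq2, 12 and 0 in voom). The summed level was 316 to 423 CPM in PR-SET7_LOBE, 248 and 285 CPM in DEN_WT and 341 and 419 CPM in WT. The median log2 fold change was 0.44, against 4.70 for the histones above (4.30 with genes at 0 counts in DEN_WT set at their bound). Whether the 2 lists share a cause was not tested. Of 33 tested genes of G2 and mitosis 0 passed in edgeR (1 at an unadjusted p under 0.05, 0 in DESeq2 and 3 in voom). Mki67, the proliferation antigen Ki-67, had 3.47, 7.46, 24.3 and 10.1 CPM in PR-SET7_LOBE, 9.83 and 5.12 CPM in DEN_WT and 1.34 and 0.645 CPM in WT (adjusted p = 0.611). Ccnd1, cyclin D1, had 149, 166, 62.8 and 75.1 against 72.4 and 55.7 CPM, and 23.3 and 15.9 CPM in WT (adjusted p = 0.301). Of 28 tested genes of homologous recombination and damage checkpoints 0 passed (4 at an unadjusted p under 0.05, all higher, 2 in DESeq2 and 5 in voom).

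**Figure D5:**
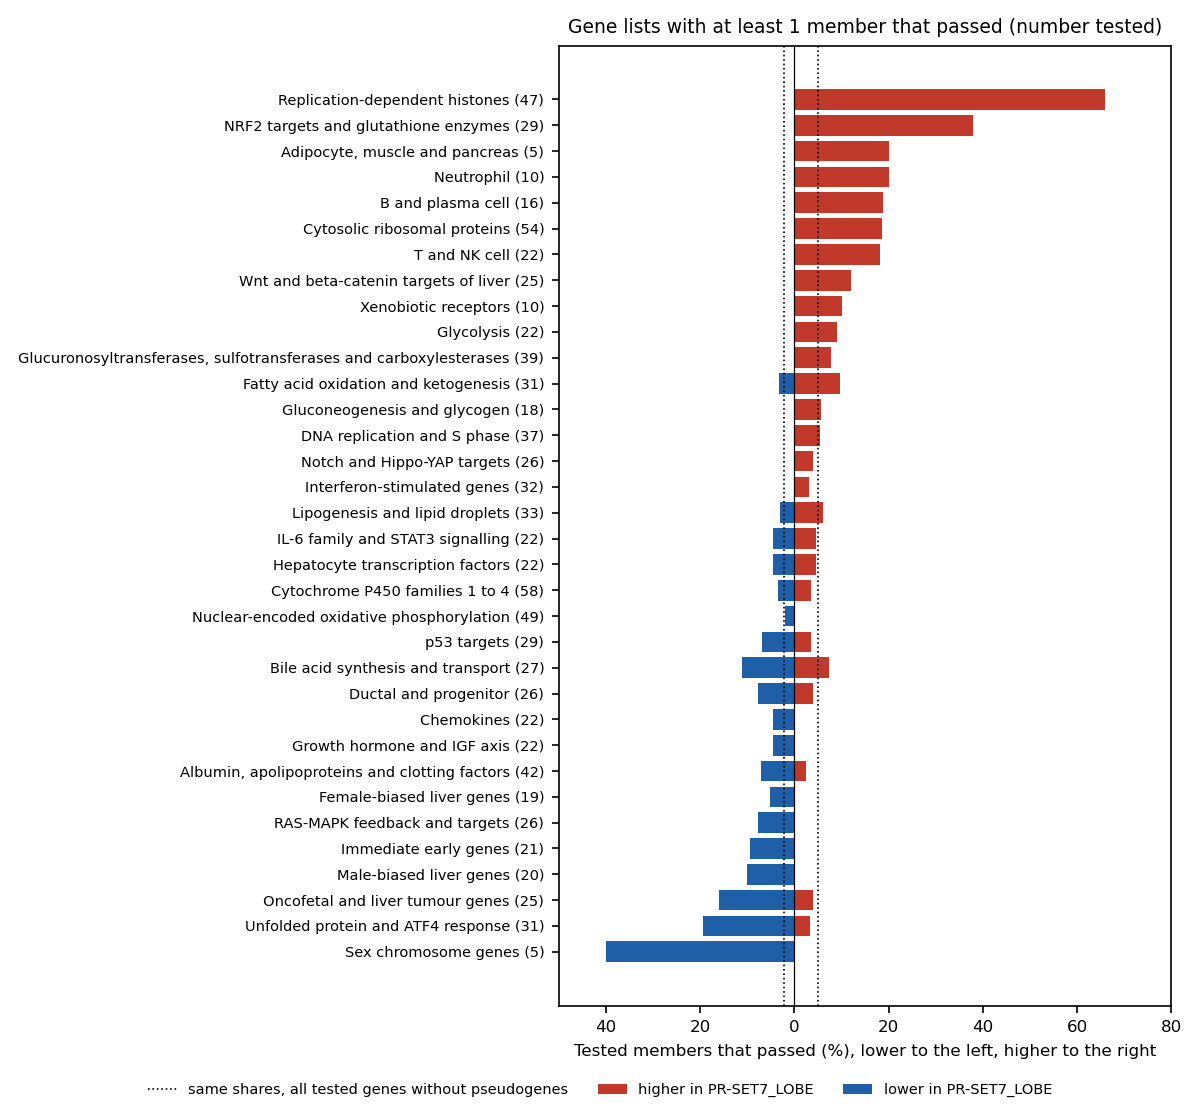
Share of tested members that were lower (blue, to the left) or higher (red, to the right) in PR-SET7_LOBE, in percent, for each gene list with at least 1 member that passed; the number tested stands in brackets and dotted lines mark the 2.19% lower and 4.97% higher of all tested genes without pseudogenes. Histones (31 of 47) and NRF2 targets (11 of 29) reach farthest to the right, and the ATF4 list (6 of 31) and oncofetal genes (4 of 25) are the lists of over 5 tested genes that reach farthest to the left.

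Cytosolic ribosomal proteins build the ribosome, and 10 of their genes were higher in PR-SET7_LOBE, while the pseudogenes of the family that passed were lower but for 1. Of 54 genes, 10 were higher and 0 lower (18.5%, median 1.11). Rpl3 had 199, 396, 192 and 169 against 54.7 and 42.4 CPM (log2 fold change 2.30, SE 0.50, adjusted p = 0.0140), Rpl11 217, 195, 110.5 and 99.7 against 48.2 and 26.8 CPM, Rps19 439.9, 587, 184 and 187 against 76.1 and 56.1 CPM and Rpl38 34.1, 83.5, 20.7 and 13.8 against 4.69 and 4.33 CPM. WT lay with PR-SET7_LOBE in each (212 and 347 CPM for Rpl3). The family has many processed pseudogenes: of 158 tested, 56 were lower and 1 higher, with a median of -1.63. Over all 1442 tested pseudogenes, 738 were lower (51.2%) with a median of -3.07, so those of this family fell less by their median. The 207 pseudogenes of the family with a parent found, tested or not, held 27.5% and 34.4% of its counts in DEN_WT. In PR-SET7_LOBE they held 4.12% to 7.50%. With the pseudogene counts added to their parents, a setting chosen after the data were seen, 2 of the 54 were higher, the median was 0.50 and Rpl38 turned to -0.24 (adjusted p = 0.836). None of the 10 passed without a DEN_WT library (Rpl3 adjusted p = 0.127 and 0.241), and 5 did not without PR-SET7_LOBE replicate 2.

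In drug and bile acid metabolism single genes passed. Of 58 cytochrome P450 genes of families 1 to 4, 2 were higher and 2 lower (6.90%, median 0.15), and none of these 4 passed without a DEN_WT library (adjusted p from 0.0684 to 0.306). Cyp1a1, the enzyme induced by the aryl hydrocarbon receptor, had 48.4, 14.2, 99.4 and 22.9 against 2.48 and 1.85 CPM (log2 fold change 4.41, SE 0.89, adjusted p = 0.00905) and 30.7 and 79.9 CPM in WT, so DEN_WT was the low group. Cyp2a22 was at 102 ± 49.0 against 23.0 ± 2.36 CPM (adjusted p = 0.0289) and did not pass without PR-SET7_LOBE replicate 2 (0.0513). Cyp2b9, a P450 that is higher in female liver, had 10.7, 43.3, 29.9 and 43.8 against 126 and 154 CPM (adjusted p = 0.0202), and Cyp2c70, which makes muricholic acids, 41.3, 193, 111 and 183 against 661 and 551 CPM (adjusted p = 0.0211). Of 27 tested genes of bile acid synthesis and transport, 3 were lower and 2 higher (18.5%, median 0.02). The lower ones were hydroxylases of oxysterols and cholesterol: Cyp46a1, given above, Cyp39a1 (3.29, 14.2, 7.89 and 7.20 against 26.5 and 62.6 CPM, adjusted p = 0.0123) and Cyp7b1 (49.0, 56.6, 12.9 and 45.6 against 212 and 198 CPM, adjusted p = 0.0130). The higher ones were efflux pumps, Abcc4 and Abcb1a (1.96, adjusted p = 0.0320). Of these 5, Abcc4, Cyp39a1 and Cyp46a1 remained without DEN_WT replicate 1, and Abcc4 and Cyp46a1 without replicate 2. Abcb1a also did not pass without PR-SET7_LOBE replicate 2 or 3 or without either WT library, and Cyp7b1 did not with GC offsets. Of 39 conjugating enzymes and carboxylesterases 3 were higher (7.69%). Ces1g, a carboxylesterase of liver, had 234, 628, 522 and 327 against 51.4 and 57.9 CPM (log2 fold change 2.97, SE 0.54, adjusted p = 0.00526). Ces2c and Ugt1a10 passed at 0.0423 and 0.0487. Ces2c did not pass without PR-SET7_LOBE replicate 2 or 3 (0.0755 to 0.0809), and Ugt1a10 did not without PR-SET7_LOBE replicate 3 or 4 (0.0668 to 0.0973). Ugt1a10 shares sequence with the other Ugt1a genes (98.4% identical to Ugt1a1), and its value is uncertain. None of the 3 passed without a DEN_WT library (Ces1g adjusted p = 0.0906 and 0.0947).

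Energy metabolism held few genes that passed, most of them in lipid storage and oxidation. Pparg, the receptor that drives fat storage, had 10.7, 15.0, 25.0 and 16.1 against 3.90 and 2.65 CPM (log2 fold change 2.35, SE 0.48, adjusted p = 0.0103), with 4.40 and 5.07 CPM in WT, and Plin4, a coat protein of lipid droplets, 43.7, 12.1, 118 and 30.2 against 5.14 and 1.68 CPM (adjusted p = 0.0194). Elovl5, an elongase of unsaturated fatty acids, was lower at 114 ± 43.0 against 344 ± 73.5 CPM (adjusted p = 0.0343), and these were the 3 of 33 lipogenic genes that passed (9.09%). Of 31 genes of fatty acid oxidation and ketogenesis 3 were higher and 1 lower (12.9%): Acaa1b, a peroxisomal thiolase (819 ± 246 against 162 ± 3.92 CPM), Acot2, a mitochondrial thioesterase (18.1 ± 3.94 against 3.10 ± 1.38 CPM), Pdk4, the kinase that spares glucose by blocking pyruvate dehydrogenase (16.8 ± 6.96 against 4.55 ± 0.446 CPM), and, lower, Acadl, a dehydrogenase of long-chain acyl groups (32.1 ± 6.64 against 87.6 ± 11.5 CPM). In glycolysis Hk2, the hexokinase of tumours and muscle, had 10.1, 9.28, 25.7 and 10.4 against 1.77 and 1.41 CPM (log2 fold change 3.12, SE 0.65, adjusted p = 0.0109), and Pkm2, the table's name for muscle pyruvate kinase, was at 66.4 ± 16.9 against 25.5 ± 5.36 CPM (adjusted p = 0.0476). They were the 2 of 22 that passed (9.09%). Ppargc1a, a coactivator of gluconeogenesis and mitochondria, was at 21.4 ± 9.09 against 6.46 ± 0.239 CPM (adjusted p = 0.0395) and was the 1 of 18 genes of gluconeogenesis and glycogen that passed. None of these 10 genes passed without a DEN_WT library (adjusted p from 0.0555 to 0.497). Calls were also lost for Acaa1b and Acot2 without PR-SET7_LOBE replicate 2 (0.0513 and 0.0559), Pdk4 without replicate 3 (0.0608) and Acadl without replicate 4 (0.0572). Those nearest the threshold also lost theirs elsewhere: Elovl5 without WT replicate 1 or PR-SET7_LOBE replicate 2 or 4 (0.0504 to 0.0800), Pkm2 without WT replicate 1 or 2 or PR-SET7_LOBE replicate 2 or 3 (0.0769 to 0.0864) and Ppargc1a without WT replicate 1 or 2 or PR-SET7_LOBE replicate 4 (0.0584 to 0.0621).

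In other hepatocyte programs few genes passed in edgeR. Of 34 genes of the urea cycle and amino acid catabolism 0 passed in edgeR (7 at an unadjusted p under 0.05, 4 in DESeq2 and 11 in voom), although Ass1, argininosuccinate synthase, had 1529, 581, 171 and 679 CPM in PR-SET7_LOBE, 197 and 146 CPM in DEN_WT and 1953 and 1949 CPM in WT (adjusted p = 0.0993), with PR-SET7_LOBE replicate 3 within the DEN_WT range. Of 23 cholesterol genes 0 passed in edgeR (2 at an unadjusted p under 0.05, 0 in DESeq2 and 4 in voom). Of 28 acute phase genes 0 passed (8 at an unadjusted p under 0.05, 6 in DESeq2 and 8 in voom); Serpina3k, a serine protease inhibitor, was at 1505 ± 836 against 5833 ± 1518 CPM (adjusted p = 0.0723). Of 42 secreted liver proteins 3 were lower and 1 higher (9.52%, median -0.46): Apom, an apolipoprotein of HDL (139 ± 76.2 against 566 ± 39.6 CPM), Trf, transferrin (521 ± 379 against 2122 ± 288 CPM), F11, a clotting factor (37.2 ± 17.1 against 117 ± 9.34 CPM), and, higher, complement factor Cfb (11.8 ± 2.14 against 4.51 ± 0.742 CPM). In the same list 12 were lower at an unadjusted p under 0.05, 11 in DESeq2 and 14 in voom, with 1 higher in each. Trf and Cfb each overlap a second annotated gene of identical sequence (Gm20425 and Gm20547), so their values are uncertain. Alb, albumin itself, had 9678, 104832, 24656 and 70844 CPM against 85339.7 and 105982 CPM and did not pass (adjusted p = 0.528). None of the 4 passed without a DEN_WT library (adjusted p from 0.140 to 0.412). Apom also did not pass without PR-SET7_LOBE replicate 4 (0.0719), Trf without WT replicate 1 or 2 or PR-SET7_LOBE replicate 1, 3 or 4 (0.0533 to 0.0746), F11 without WT replicate 1 or 2 or PR-SET7_LOBE replicate 2 (0.0501 to 0.0933) and Cfb without WT replicate 1 or 2 or PR-SET7_LOBE replicate 2, 3 or 4 (0.0538 to 0.0812). Of 49 subunits of oxidative phosphorylation, Ndufb5 alone was lower (2.04% passed, adjusted p = 0.0458), and it did not pass without a DEN_WT library (adjusted p from 0.105 to 0.509) or without WT replicate 1 or 2 or PR-SET7_LOBE replicate 3 or 4 (0.0580 to 0.0712).

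Among cytokine and growth factor genes, Il11, a cytokine of the IL-6 family, had 8.73, 11.5, 5.76 and 21.1 CPM in PR-SET7_LOBE, 0.266 and 0.265 CPM in DEN_WT and 9.86 and 7.84 CPM in WT (log2 fold change 5.41, SE 0.75, adjusted p = 0.00159). It passed whichever DEN_WT library was left out. Lifr, the receptor of leukemia inhibitory factor, was lower at 52.3 ± 29.9 against 156 ± 12.3 CPM (adjusted p = 0.0426), which makes 2 of 22 tested members (9.09%). Lifr did not pass without a DEN_WT library (adjusted p from 0.170 to 0.284) or without WT replicate 1 or 2 or PR-SET7_LOBE replicate 2 or 3 (0.0574 to 0.0915). Igfbp1, a binding protein of insulin-like growth factors, had 148, 197, 232 and 21.8 against 588 and 1248 CPM, with 37.3 and 38.2 CPM in WT (log2 fold change -2.61, SE 0.68, adjusted p = 0.0322), and was the 1 of 22 genes of the growth hormone and IGF axis that passed. Its call was lost without a DEN_WT library (adjusted p from 0.0522 to 0.311) and without PR-SET7_LOBE replicate 1 or 2 (0.0533 to 0.0632). Cxcl1, a neutrophil-attracting chemokine and the 1 of 22 tested chemokines that passed, had 6.67, 5.17, 9.93 and 2.19 against 25.9 and 31.3 CPM (adjusted p = 0.0229) and did not pass without DEN_WT replicate 1 (0.0889) or 2 (0.182) or PR-SET7_LOBE replicate 2 (0.0626). Ubd, an inflammation-induced ubiquitin-like modifier, had 35.1, 329, 369.7 and 54.6 CPM in PR-SET7_LOBE, 2.57 and 4.95 CPM in DEN_WT and 0.574 and 0.369 CPM in WT (log2 fold change 5.71, SE 1.13, adjusted p = 0.00823). Ubd was the 1 of 32 interferon-stimulated genes that passed (3.12%), and without DEN_WT replicate 1 or 2 it did not (adjusted p = 0.0830 and 0.0683).

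Some lymphocyte and neutrophil genes were higher in PR-SET7_LOBE than in DEN_WT, and WT mostly lay with PR-SET7_LOBE. Of 16 tested B and plasma cell markers 3 were higher in PR-SET7_LOBE and 0 lower (18.8%, median 0.99). Fcer2a, the low-affinity IgE receptor CD23, had 10.8, 18.2, 7.61 and 7.47 CPM in PR-SET7_LOBE, 0.443 and 0.0883 CPM in DEN_WT and 11 and 14.2 CPM in WT (log2 fold change 5.31, SE 0.76, adjusted p = 0.00175). Cd22, an inhibitory receptor, had 20.1, 14.4, 12.0 and 23.6 against 2.30 and 0.972 CPM (log2 fold change 3.41, SE 0.52, adjusted p = 0.00228). Cd79b, the signalling chain of the B cell receptor, was at 2.75 ± 0.431 against 0.310 ± 0.0631 CPM, but WT was low as well (0.191 and 0.553 CPM). Of 22 T and NK cell markers 4 were higher (18.2%, median 1.63): Cd3d, a chain of the T cell receptor complex, had 13.8, 6.22, 4.08 and 6.47 against 0.354 and 0.265 CPM, and Eomes, a transcription factor of killer cells, 10.3, 4.11, 2.78 and 4.01 against 0.177 and 0.442 CPM. Cd8b1, a chain of the CD8 coreceptor, rose by 2.67 and Cd6, a surface protein of T cells, by 3.56 on the log2 scale (adjusted p = 0.0225 and 0.0252). Of 10 neutrophil markers 2 were higher (20.0%): Csf3r, the receptor of granulocyte colony-stimulating factor, had 20.0, 27.6, 15.9 and 15.3 against 3.54 and 2.03 CPM (log2 fold change 2.82, SE 0.46, adjusted p = 0.00306), and Cxcr2, the receptor of Cxcl1, 6.20, 10.9, 6.96 and 34.4 against 2.30 and 1.41 CPM. Of these 9 genes Fcer2a passed whichever DEN_WT library was left out; Cd22, Cd3d and Csf3r passed without replicate 1 only, and the other 5 in neither fit (adjusted p without replicate 2 was 0.0520, 0.0519 and 0.0852 for these 3). Cxcr2 also did not pass without PR-SET7_LOBE replicate 2 (adjusted p = 0.0509). The summed neutrophil markers were at 40.3 to 64.0 CPM in PR-SET7_LOBE, 7.07 and 14.0 CPM in DEN_WT and 44.5 and 48.9 CPM in WT, and those of T and NK cells at 54.0 to 80.7 CPM in PR-SET7_LOBE, 20.5 and 25.9 CPM in DEN_WT and 40.5 and 59.0 CPM in WT. The summed B and plasma cell markers overlapped, at 265 to 879 CPM in PR-SET7_LOBE, 349 and 401 CPM in DEN_WT and 552 and 1245 CPM in WT.

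MHC class II genes had a median of 1.55, yet 0 of 11 passed in edgeR (6 at an unadjusted p under 0.05, all higher, 2 in DESeq2 and 3 in voom). H2-Eb1 had 389, 260.4, 299 and 114 against 61.7 and 45.4 CPM (adjusted p = 0.0582), and WT had 139.6 and 27.4 CPM. Of 25 Kupffer cell and macrophage markers 0 passed (8 at an unadjusted p under 0.05, of which 6 were higher, 5 in DESeq2 and 7 in voom). Cx3cr1, the fractalkine receptor of monocyte-derived macrophages, had 20.5, 42.3, 34.2 and 20.2 against 8.15 and 7.60 CPM (adjusted p = 0.0641), while Spp1, osteopontin, had 176, 249, 191 and 68.8 against 383 and 679 CPM and 15.5 and 9.04 CPM in WT (adjusted p = 0.0591).

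The labelled tissue was checked with its markers. Of 12 hepatocyte markers 0 passed in edgeR (3 at an unadjusted p under 0.05, 3 in DESeq2 and 3 in voom), and their summed level was 60109.7 to 187398 CPM in PR-SET7_LOBE and 163688 and 196181 CPM in DEN_WT. Of 26 tested ductal and progenitor markers 1 was higher and 2 lower (11.5%, median 0.20). Krt23, a keratin of injured liver, had 2.54, 1.15, 1.39 and 0.729 against 19.6 and 8.30 CPM (log2 fold change -3.25, SE 0.78, adjusted p = 0.0213), and Alcam, an adhesion molecule, 20.1, 38.8, 64.9 and 36.2 against 143 and 155 CPM (adjusted p = 0.0171). Ggt1, gamma-glutamyl transferase, which is switched on in altered liver foci and in ducts, had 18.2, 1.34, 5.94 and 1.37 CPM against 2 counts in DEN_WT, and no counts in WT. The ratio to DEN_WT was 75.7, and counting error alone spans 20.8 to 628 at 95%. None of the 3 passed without a DEN_WT library (adjusted p from 0.0551 to 0.272), and Krt23 did not without PR-SET7_LOBE replicate 2 (0.0607) nor Ggt1 without PR-SET7_LOBE replicate 3 (0.0547). The defining duct markers overlapped or did not pass: Krt19 had 5.17, 0.957, 1.86 and 1.82 against 1.95 and 2.21 CPM (adjusted p = 0.851) and Epcam 5.17, 1.05, 2.04 and 3.64 against 1.51 and 1.41 CPM (adjusted p = 0.409). Of 30 stellate cell and matrix markers 0 passed (5 at an unadjusted p under 0.05, 2 in DESeq2 and 4 in voom), of 22 endothelial markers 0 passed (1 at an unadjusted p under 0.05, 0 in DESeq2 and 2 in voom), and of 10 tested erythroid markers 0 passed (1 at an unadjusted p under 0.05, 0 in DESeq2 and 3 in voom). Acta1, skeletal actin, was the 1 of 5 tested genes of fat, muscle and pancreas that passed, with 25.5, 10.8, 2.23 and 6.10 against 0.354 and 0.353 CPM and 11.8 and 13.8 CPM in WT (adjusted p = 0.0107, and 0.0925 and 0.115 without DEN_WT replicates 1 and 2). Ttn, the giant muscle protein titin, was at 14.5 ± 15.8 against 3.18 ± 0.631 CPM (adjusted p = 0.304).

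Genes of sex and of time of day can differ between groups of mice whatever their treatment. Ddx3y and Uty, both on chromosome Y, were lower in PR-SET7_LOBE and were the 2 of 5 tested genes of the sex chromosome list that passed. Ddx3y had 2.72, 2.97, 12.6 and 14.6 CPM there, 45.1 and 32.3 CPM in DEN_WT and 5.65 and 4.43 CPM in WT (adjusted p = 0.0409), and Xist, transcribed from the inactive X, had 0.188, 0.574, 3.71 and 7.93, 0.531 and 0.530, and 0.574 and 0.830 CPM in the same order (adjusted p = 0.235). Reads of chromosome Y genes were thus present in all 8 libraries, and Xist was highest in PR-SET7_LOBE replicates 3 and 4. Neither passed without a DEN_WT library (adjusted p from 0.132 to 0.231), nor Ddx3y without WT replicate 1 or 2 or PR-SET7_LOBE replicate 2 (0.0522 to 0.0744) or Uty without PR-SET7_LOBE replicate 2 (0.0518). Of 20 male-biased liver genes 2 were lower, Mup20 and Cyp7b1 (10%, median -0.73; neither without a DEN_WT library), and of 19 tested female-biased genes 1 was lower, Cyp2b9 (5.26%). With offsets for GC content none of Ddx3y, Uty, Mup20 and Cyp7b1 passed (adjusted p from 0.104 to 0.209). The part of sex in these genes was not tested. Of 18 clock genes 0 passed in edgeR (1 at an unadjusted p under 0.05, 0 in DESeq2 and 1 in voom), and of 15 heat shock chaperones 0 passed (3 at an unadjusted p under 0.05, 1 in DESeq2 and 3 in voom).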

How the data were processed

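RNA of mouse livers was selected with oligo(dT) beads, fragmented with RNase III, made into libraries with the Ion Total RNA-Seq Kit v2 and sequenced on an Ion Proton, per the labels' protocols. The deposited table holds the authors' raw counts per Ensembl gene in 8 libraries, and the 8 sample files hold the same values. TopHat2 (2.0.9), Cufflinks, DESeq and the mm9 build appear in the submitters' processing notes; the sources used here do not name the counting tool, its annotation or its use of strand. Reads of overlapping or near-identical genes therefore cannot be assigned with certainty.

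The counts were fitted with edgeR 4.0.16 (R 4.3.3): filterByExpr, TMM scaling, robust quasi-likelihood test, all 8 libraries in 1 fit, PR-SET7_LOBE minus DEN_WT, Benjamini-Hochberg adjusted p under 0.05 over 17362 of 37583 genes. CPM use the scaled library sizes; 3 counts are 0.265 to 0.287 CPM. For genes with no counts in DEN_WT, the fold is given as a lower bound against 3 counts over the group; with 1 to 3 counts, a ratio with its exact 95% counting interval is given, which covers counting error only. Alternatives included DESeq2 1.42.0 and limma-voom (3.58.1). On simulated data for this comparison (16165 genes) the test recovered 32 of 100 genes changed 4-fold and 95 of 100 changed 16-fold, with 9 false calls, so changes under 4-fold were often not detectable at this depth and spread (biological coefficient of variation 0.479).

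Gene types came from GENCODE M21 (87.4% of IDs matched, 93.8% with a type). Parents of pseudogenes were found with blastn 2.17.0. No 2 replicates agreed within counting noise (chi-square per degree of freedom at least 27.4). The 48 gene lists hold 1298 members, of which 1293 matched a gene. The groups, the lists and the genes named were chosen with earlier results of these data known. Genes were named by rule: Setd8, the 12 highest and 12 lowest called named genes with a mean log2 CPM of at least 1 and no overlap between groups, the 4 lowest adjusted p-values of each list, up to 4 pseudogenes at either end, and tumour genes of known interest. Gstm1, Gstm2, Gstm3, Gsta2, Gpx2, Asns, Psat1, Manf, Igf2bp2 and Abcb1a fall outside the rule and were named after their values were seen. From the genes under the rule, 1 of the 12 highest is not reported here.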

Additional observations from a re-analysis of the deposited data

Results flagged for a closer look

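In 12 of 128 genes looked at, 1 of the 4 PR-SET7_LOBE libraries lay farther from the other 3 than Dixon's test allows at 95%. Chance flags about 1 in 20 such groups. Replicate 2 was the high one in 5 genes: Wfdc15b at 2.97 CPM (the others between 0.638 and 0.657), Afp at 32.1 CPM (4.83 to 8.92), Cyp2a22 at 175 CPM (71.0 to 85.7), Trf at 1086 CPM (291 to 386) and Rpl3 at 396 CPM (169 to 199). Afp in that library still lay below both DEN_WT libraries. Replicate 3 was the high one for Slc7a11 at 166 CPM (29.8 to 49.4) and for Hk2 at 25.7 CPM (9.28 to 10.4). Replicate 4 was the low one for Cbr1 at 72.0 CPM (221 to 242) and Cd6 at 2.19 CPM (3.47 to 3.71), and the high one for Lifr at 97.0 CPM (35.6 to 40) and Cxcr2 at 34.4 CPM (6.20 to 10.9). Replicate 1 was the high one for Dlk1 at 53 CPM (1.21 to 3.54).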

How the results depend on the processing

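The count of 1141 genes other than pseudogenes (792 higher, 349 lower) was 1979 with DESeq2 (1299 higher, 680 lower) and 4140 with voom (2451 higher, 1689 lower), and 1140 and 1131 of the 1141 were called there too. The share of higher calls was 69.4%, 77.9% with upper-quartile scaling and 59.2% with voom. Leaving out 1 library gave 187 to 1834 genes (144 to 1128 higher, 43 to 706 lower), the fewest without DEN_WT replicate 2. Of 783 pseudogenes (738 lower), the strict filter (at least 5 CPM in 2 libraries) left 454 (419 lower). With 1 library left out, 267 to 828 were called (261 to 773 lower). Adding pseudogene counts to the parents takes every pseudogene with a parent found out of the test, among them 511 of the 738 lower ones. The 234 called there (214 lower) are thus pseudogenes without a parent found. That smaller count cannot show whether calls of the others would be lost. Of 108 called genes named here, 38 remained without DEN_WT replicate 1 and 29 without replicate 2, against 87 to 105 without 1 PR-SET7_LOBE library; the cause was not tested, though each DEN_WT fit rests on 1 library.

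PR-SET7_LOBE and DEN_WT share replicate numbers 1 and 2 only. Same-numbered libraries did not deviate together across genes (r = -0.00874 and 0.02). The deviations of the 2 DEN_WT libraries mirror each other, so these values cannot tell whether the numbers mark a pairing. The WT libraries were not checked in this way. With the replicate number as a block, 1839 genes were called (1192 higher, 647 lower), 952 of them among the 1141, and Mki67 was at -0.38. Of the genes named, the block ended the calls of Ugt1a10, Elovl5, Trf, Cfb, Lgr5, Dkk2 and Krt23 (adjusted p from 0.0611 to 0.101), while Igf2 (6.84e-05), H19 (0.000965), Dlk1 (0.00383) and Ccnd1 (0.0494) passed with it. GC offsets ended those of Mup20, Elovl5, Uty, Cyp7b1, Ddx3y, Lifr, Pkm2, Cxcl1 and Cfb (adjusted p from 0.0526 to 0.209). Of genes that had not passed, Spp1 (0.00862) and Etv4 (0.0357) did with DESeq2, and Spp1 (0.00680), Etv4 (0.0442), Sox9 (0.0141) and Dusp6 (0.0273) with voom.

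Signs turned in 5 genes: Rpl38, which had passed, and 4 that had not. Rpl38 was at -0.24 with pseudogene counts added. H19 was at -1.12 with voom. Leaving out 1 library, Mki67 ranged from -0.18 (without PR-SET7_LOBE replicate 3) to 1.11, Krt19 from -0.42 (without PR-SET7_LOBE replicate 1) to 0.52, and Cdkn1a from -0.29 (without DEN_WT replicate 1; -0.27 without PR-SET7_LOBE replicate 4) to 0.46. Krt19 was at -0.26 with voom and -0.23 with GC offsets. Cdkn1a was at -0.15 with voom and with GC offsets and -0.02 with no filter. The causes were not tested. With 4 and 2 libraries and 7305595 to 12170293 counts each, a level of 0.265 CPM rests on 3 counts, and changes under 4-fold were mostly not detectable.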
